A study of Mus musculus with 3 samples.

Results

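The nuclear genes for the subunits of oxidative phosphorylation were examined in mouse JB6 P+ cells, an epidermal line in which tumour promoters bring about transformation. Members were taken by symbol, as every gene named Ndufa, Ndufb, Ndufc, Ndufs or Ndufv with a number, Sdha to Sdhd, Uqcr, Cox4 to Cox8, or Atp5. This gave 84 of the 24421 genes in the count table: 37 in complex I, 4 in complex II, 8 in complex III, 18 in complex IV and 17 in complex V. The RNA libraries numbered 3, with 1 per group. The control library has no agent in its labels. The second group received TPA, a phorbol ester and tumour promoter, at 10 ng/mL. The remaining group received the same dose of TPA with CDDO, a synthetic triterpenoid, at 50 nM. Both treatments ran for 5 days in medium with 1% serum. Cells of all groups were grown in medium with 10% serum. Whether the control was moved to low serum, for how long and with which vehicle the sources used here do not say, so a difference from control cannot be told apart from those conditions.

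The mitochondrial inner membrane carries 4 respiratory complexes and ATP synthase, which is counted as complex V. Complex I oxidises NADH and complex II oxidises succinate, both passing electrons to coenzyme Q; complex III moves them on to cytochrome c, and complex IV to oxygen. Complexes I, III and IV pump protons, and ATP synthase uses the returning protons to make ATP. Most subunits are encoded in the nucleus and imported, a few core subunits are encoded in mitochondrial DNA, and several complex IV and V subunits exist as isoforms from separate genes with tissue-restricted use. The mitochondrially encoded subunits are not analysed here.

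Reads counted on genes, after removal of duplicates, came to 8190078 for control, 7813035 for TPA and 7872089 for CDDO+TPA. No group had a replicate, so no p-value was computed; each interval below is a 95% counting interval and leaves out the spread between cultures. A ratio is that of CPM, a gene's reads scaled to the size of its library, and the bracket after it gives its interval. A level per length is given as RPKM, CPM per kilobase of exon. Values stand in the order control, TPA, CDDO+TPA. The keratinocyte markers Krt1, Krt5, Krt15, Krt18 and Epcam had 0 reads in every library. Of 15 such markers, 6 reached 1 CPM in at least 1 library, against 9 of 10 mesenchymal markers. The 15 keratinocyte markers summed to 177, 248 and 272 CPM, and the 10 mesenchymal markers to 3043, 1988 and 2445 CPM. In bulk RNA, fewer cells of a type and less RNA per cell cannot be told apart. The 3 comparisons share libraries: a high or low value in the TPA library enters both comparisons that hold it.

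As a group, the subunit genes kept nearly the same share of the reads in the 3 libraries. Members held 39973, 39132 and 39767 reads, which is 0.488%, 0.501% and 0.505% of all reads. Of the 84 members, 77 reached 1 CPM in at least 1 library and entered the comparisons, and each of the 77 averaged at least 10 CPM over the libraries. The ratio of their summed CPM was 0.985 (0.971 to 0.999) for TPA against control, 1.03 (1.01 to 1.04) for CDDO+TPA against TPA and 1.01 (0.996 to 1.02) for CDDO+TPA against control. All 3 ratios lay within 3% of 1. The shares rest on library totals and the ratios on library sizes scaled by TMM factors. From control to TPA the share was higher while the ratio was below 1, so that direction depends on the scaling.

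Per length, the members were expressed well above the middle of the transcriptome. Their median RPKM was 68.0, 66.0 and 66.0, against 25.3, 24.1 and 24.9 over the 9890 genes that averaged at least 10 CPM. Complex IV had the highest median of the 5 complexes, at 89.5, 85.8 and 87.3 RPKM. Complex III followed in the control library with 76.5, and complexes I, II and V lay between 60.7 and 63.7 there, a narrow range beside the spread of their members. The highest member was Atp5b, the catalytic beta subunit of ATP synthase, at 170.8, 162 and 176 RPKM from 2572, 2431 and 2603 reads. In complex III the highest was Uqcrq, a small membrane subunit, at 141, 138 and 127 RPKM. In complex IV it was Cox4i1, the ubiquitous isoform of subunit 4, at 137, 140 and 133 RPKM, and in complex I Ndufb9, of the membrane arm, at 124, 116 and 117 RPKM. Each of these was the highest of its own complex in the 3 libraries, and the order among them was not the same in each: Uqcrq lay above Cox4i1 in control and below it in both treated libraries.

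The low end of the range held isoforms and proteins that are not core subunits. Atp5sl, which despite its symbol is known as an assembly factor of complex I, stood at 5.94, 6.85 and 5.41 RPKM. Atp5s, a coupling factor-like protein, stood at 13.2, 8.62 and 12.03 RPKM. Cox6a2, the heart and muscle isoform of subunit 6A, stood at 24.1, 9.72 and 14.4 RPKM. In complex I the lowest that entered was Ndufa11, of the membrane arm, with 16.5, 16.8 and 14.0 RPKM over 2661 exonic bases.

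**Figure D1:**
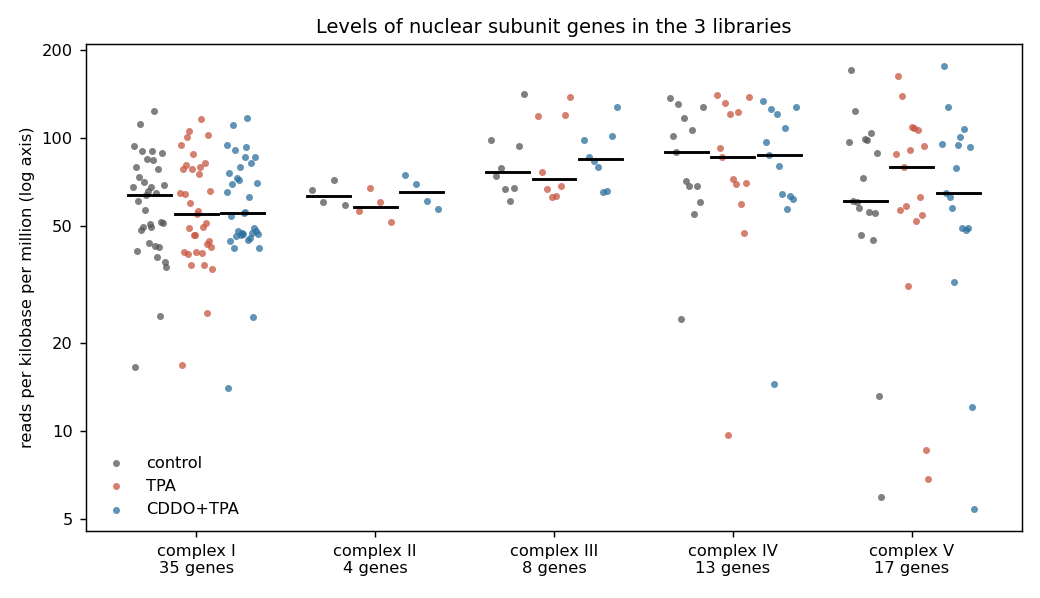
Level of each of the 77 subunit genes that entered, in RPKM on a log axis, by complex and library; each point is a gene and each black bar the median of the complex. Complex IV has the highest median in each library, at 89.5, 85.8 and 87.3, and the lowest points of complexes IV and V are Cox6a2, Atp5s and Atp5sl.

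The 7 members that did not enter were 6 paralogues and Ndufs5. Ndufa4l2, a paralogue of Ndufa4, had 8, 4 and 4 reads, Cox7a1, the muscle isoform of subunit 7A, 4, 7 and 2 reads, and Cox4i2, the lung isoform of subunit 4, 3, 5 and 0 reads. Cox6b2 and Cox8b each had 1 read in the TPA library and none in the others, and Cox8c had 0 reads in every library. A count of 0 allows up to 3 reads, or 0.374, 0.377 and 0.380 CPM. Ndufs5 encodes an accessory subunit of the complex I membrane arm and had 0 reads in all 3 libraries. Of its 509 exonic bases, 484 (95.1%) are shared on the same strand of chromosome 4 with the annotated gene BC002163, whose exons lie both there and at chr16:42955580-42956079 (mm10). BC002163 had 144, 104 and 126 reads. Reads over exons of more than 1 gene are by default not assigned by the counting program, so the 0 gives no level for Ndufs5.

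TPA was compared with control for how far the transcripts of the respiratory chain differed in cells given the promoter. The members were close to even: their median log2 fold change was 0.01, beside 0.00 over the 13100 genes that entered, and 39 of 77 were positive. The size rule asked for a fold of at least 1.5 and an interval that excluded 1. No member was higher by this rule, where 15.5% of all genes were, and 3 were lower, where 13.7% of all genes were. By a fold of 2, no member was higher and 1 was lower, against 9.57% and 5.91% of all genes. Among the 9890 genes of at least 10 CPM, a range that holds every member that entered, 10.4% were higher and 13.9% lower by 1.5-fold. The interval of the ratio excluded 1 for 11 members that were higher and 17 that were lower, or 28 of 77, and for 62.9% of all genes. The SD of the members' log2 fold changes was 0.27, against 0.64 over genes of at least 10 CPM, and counting error alone gives about 0.11 for the members.

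**Figure D2:**
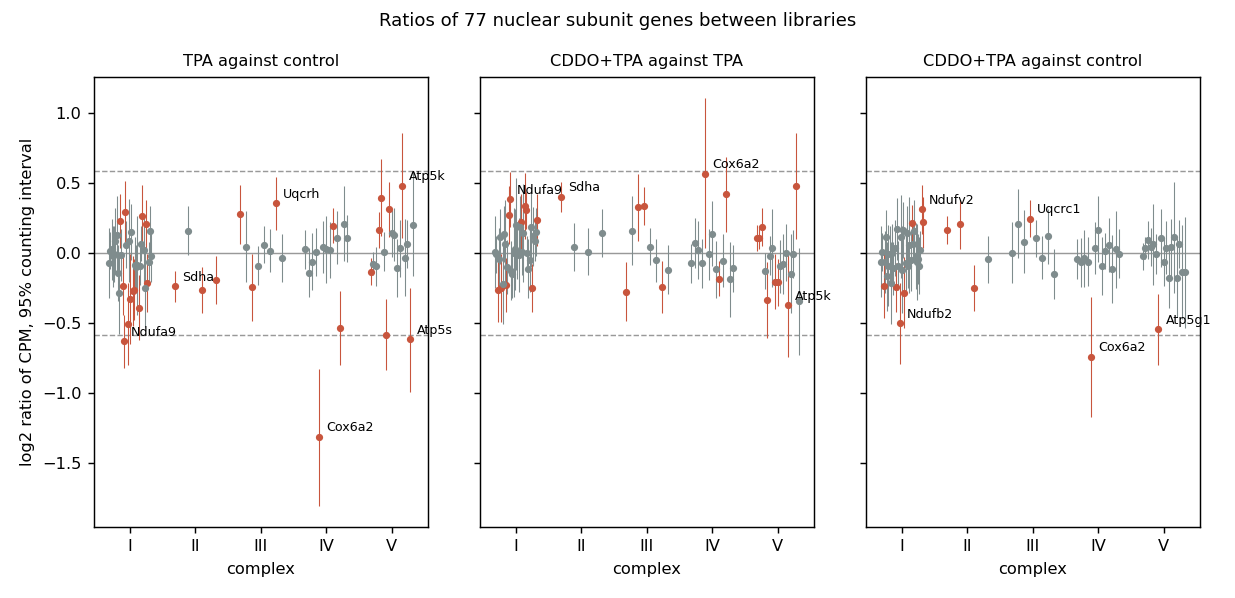
Log2 ratio of CPM between libraries for each of the 77 subunit genes, by complex, with bars for the 95% counting interval, orange where it excludes 0 and grey where it does not; dashed lines mark 1.5-fold. Most points lie inside the dashed lines in the 3 comparisons, and Cox6a2 is the lowest in TPA against control, at a ratio of 0.404.

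The 3 members lower by 1.5-fold in the TPA library were Cox6a2, Ndufa9 and Atp5s. Cox6a2 had 127, 51 and 75 reads, a ratio of 0.404 (0.286 to 0.563) for TPA against control, and it was the member lower by 2-fold. The control library was the highest of the 3 for this gene and the TPA library the lowest. Of the 659 exonic bases of Cox6a2, 69 overlap exons of Itgad on the other strand, a gene with 7, 2 and 6 reads.

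Ndufa9, an accessory subunit beside the coenzyme Q module of complex I, had 603, 388 and 502 reads, a ratio of 0.647 (0.568 to 0.737) for TPA against control. Atp5s had 157, 102 and 141 reads and a ratio of 0.654 (0.504 to 0.844). Both were lowest in the TPA library, with CDDO+TPA between the others. With library totals or upper quartiles in place of TMM scaling, Cox6a2 was the sole member lower by 1.5-fold; Ndufa9 and Atp5s were then just short of it.

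Complex I holds the NADH-oxidising module, the coenzyme Q module and the membrane arm. Of its 35 members that entered, 1 was lower by 1.5-fold in the TPA library, 4 had intervals wholly above 1 and 8 wholly below. Among the catalytic core subunits, Ndufs3 had 320, 383 and 352 reads, 1.20 (1.04 to 1.40), and Ndufs7 538, 619 and 516 reads, 1.16 (1.03 to 1.30), both above 1 in TPA against control. Ndufs3 has a near-identical pseudogene in the annotation. Ndufs8, which like Ndufs7 carries iron-sulfur clusters, had 422, 363 and 391 reads and a ratio of 0.865 (0.750 to 0.998). Ndufs1, Ndufv1 and Ndufv2, also core subunits, had intervals that included 1. The core subunits named here thus differed in direction in this comparison, with ratios from 0.865 to 1.20.

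Among the accessory subunits of the membrane arm, Ndufb2 had 241, 169 and 168 reads, a ratio of 0.705 (0.576 to 0.862) for TPA against control. Ndufc2 had 354, 269 and 337 reads and a ratio of 0.764 (0.650 to 0.898). Ndufb10 had 324, 396 and 360 reads, and its ratio of 1.23 (1.06 to 1.43) was the highest of complex I. Ndufb2 was low in both treated libraries, while Ndufc2 was low in the TPA library alone. Ndufb6 had 291, 240 and 236 reads, with a ratio of 0.830 (0.696 to 0.988), and a near-identical transcript of another gene is annotated for it.

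Complex II, whose 4 subunits are all nuclear, also acts as succinate dehydrogenase in the tricarboxylic acid cycle. Its summed ratio for TPA against control was 0.894 (0.850 to 0.939). Sdha, the flavoprotein that oxidises succinate, had 1517, 1281 and 1679 reads, 0.849 (0.788 to 0.916). The membrane anchors Sdhc, with 680, 565 and 565 reads, and Sdhd, with 608, 530 and 581, had ratios of 0.836 (0.746 to 0.936) and 0.877 (0.779 to 0.987). Sdhb, the iron-sulfur subunit, had 519, 577 and 590 reads and a ratio of 1.12 (0.992 to 1.26). So 3 of the 4 subunits were lower in the TPA library with intervals below 1, none of them by 1.5-fold, and Sdhb had an interval that included 1. The median log2 fold change of the complex was -0.21, and it stayed below 0 under the other scalings, between -0.15 and -0.24 over these and the correction for a cap on duplicates.

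Complex III members had a median log2 fold change of 0.03 in TPA against control. Uqcrh, the hinge protein next to cytochrome c1, had 409, 521 and 438 reads, 1.28 (1.12 to 1.46), and Uqcr10, a small subunit, 346, 417 and 342 reads, 1.21 (1.05 to 1.40). Both were highest in the TPA library. Uqcrb, which binds coenzyme Q together with cytochrome b, had 318, 267 and 332 reads and a ratio of 0.845 (0.715 to 0.997), and 3 pseudogenes nearly identical to it are annotated. Uqcrfs1, the Rieske iron-sulfur protein, had 710, 715 and 684 reads, 1.01 (0.912 to 1.13).

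In complex IV, 13 of 18 members entered. Apart from Cox6a2, those whose interval excluded 1 in TPA against control were Cox7b2, with 298, 205 and 272 reads and a ratio of 0.692 (0.576 to 0.830), and Cox7a2l, with 980, 1118 and 977 reads and 1.15 (1.05 to 1.25). A near-identical pseudogene is annotated for Cox7a2l. It is known as a factor of supercomplex assembly and not as a constitutive subunit. The nuclear subunits Cox4i1, Cox5a, Cox5b, Cox6b1, Cox6c, Cox7c and Cox8a had ratios between 0.909 and 1.16, each with an interval that included 1.

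In complex V, the catalytic head is built from Atp5a1, Atp5b, Atp5c1, Atp5d and Atp5e. Atp5a1, the alpha subunit, had 1879, 1705 and 1823 reads and a ratio of 0.913 (0.854 to 0.975) for TPA against control, and Atp5b 0.951 (0.899 to 1.01). Atp5d and Atp5e, the delta and epsilon subunits of the central stalk, had ratios of 1.12 (1.03 to 1.23) and 1.32 (1.09 to 1.59); Atp5e had 200, 262 and 206 reads. Atp5k, which encodes subunit e of the membrane part, had 105, 146 and 112 reads and the highest ratio of all members, 1.40 (1.08 to 1.82); a near-identical pseudogene is annotated for it. Within complex V, the members with intervals below 1 in this comparison were Atp5a1, Atp5s and Atp5g1, and those above 1 were Atp5d, Atp5e, Atp5k and Atp5g2; of these Atp5s alone was past 1.5-fold.

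Subunit c of ATP synthase forms the proton-driven ring and is made by Atp5g1, Atp5g2 and Atp5g3, whose mature proteins are identical. Atp5g1 had 325, 216 and 220 reads, with a ratio of 0.669 (0.560 to 0.797) for TPA against control and 0.687 (0.577 to 0.818) for CDDO+TPA against control. Atp5g2 had 378, 467 and 402 reads, and Atp5g3 574, 630 and 541. Atp5g1 was low in both treated libraries, and the others were highest in the TPA library. Atp5g1 thus made 25.4% (23.1 to 27.9), 16.5% (14.5 to 18.6) and 18.9% (16.7 to 21.3) of the family's reads, by Clopper-Pearson intervals. The sum of the 3 genes stood at 159, 165 and 147 CPM, with a ratio of 1.03 (0.957 to 1.12) for TPA against control and 0.894 (0.825 to 0.968) for CDDO+TPA against TPA. A near-identical pseudogene is annotated for Atp5g1 and for Atp5g2, and reads could have been divided between copies.

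The 250 bases before the annotated start of these genes are given because the 3 promoters serve genes for 1 mature protein whose read counts differed in direction; Ndufa9 is given as the subunit gene with a promoter entry that was lower by 1.5-fold. Sequences are from RefSeq, build GRCm38.p6, 5′ to 3′ on the gene's strand, with matches to the motifs below in capitals. For Cox6a2 no sequence is printed.
Atp5g1, chr11:96075632-96075881, strand -: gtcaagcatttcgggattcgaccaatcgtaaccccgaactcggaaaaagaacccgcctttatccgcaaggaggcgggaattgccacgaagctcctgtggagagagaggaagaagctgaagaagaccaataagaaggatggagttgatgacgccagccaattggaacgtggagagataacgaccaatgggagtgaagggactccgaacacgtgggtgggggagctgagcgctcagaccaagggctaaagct
Atp5g2, chr15:102671048-102671297, strand -: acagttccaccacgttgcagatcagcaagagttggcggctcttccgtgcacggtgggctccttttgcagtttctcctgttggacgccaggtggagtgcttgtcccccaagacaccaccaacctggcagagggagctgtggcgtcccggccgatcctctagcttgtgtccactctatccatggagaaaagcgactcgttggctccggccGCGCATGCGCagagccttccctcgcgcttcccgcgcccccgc
Atp5g3, chr2:73911327-73911576, strand -: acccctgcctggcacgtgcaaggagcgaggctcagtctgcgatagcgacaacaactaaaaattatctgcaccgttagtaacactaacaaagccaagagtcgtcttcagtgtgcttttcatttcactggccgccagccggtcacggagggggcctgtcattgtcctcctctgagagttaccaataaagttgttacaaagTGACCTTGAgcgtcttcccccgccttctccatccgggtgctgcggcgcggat
Ndufa9, chr6:126849145-126849394, strand -: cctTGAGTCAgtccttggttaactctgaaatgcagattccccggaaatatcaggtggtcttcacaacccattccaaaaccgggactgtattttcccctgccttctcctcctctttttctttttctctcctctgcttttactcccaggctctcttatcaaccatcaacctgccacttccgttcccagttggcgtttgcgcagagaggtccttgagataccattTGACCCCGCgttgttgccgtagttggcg
The capitals mark, in Atp5g2, overlapping matches to the NRF1 motif on both strands 42 and 41 bases before the start, in Atp5g3 a match to the estrogen-related receptor motif 52 bases before the start, and in Ndufa9 an AP-1 match 247 and an antioxidant response element match 28 bases before it. The 250 bases printed for Atp5g1 held none of the 6 motifs. The windows searched below run past the start, and there Atp5g1 had an AP-1 match 6 bases after it. Ndufa9 likewise had a match to the YY1 motif 29 bases after its start. An annotated model of Atp5g1 reaches chr11:96075694, so the last of its printed bases lie within that model and not before its start.

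Over the members, 69 of 84 matched a promoter entry, with 75 windows of 300 bases that run from 250 before to 50 after the start. Both strands were searched for exact letters. The motif GCGCATGCG of NRF1, a regulator of respiratory genes, was in 10.7% of member windows and 1.75% of all 32851 windows. The motif AAGATGGCG of YY1 was in 12% and 1.40%. Among the 12534 windows of genes that entered, the shares were 3.52% and 2.90%, which are given as a description, with no test. The ETS motif CCGGAAGT, read by GABPA, was in 6.67% of member windows, 3.89% of all and 7.78% of those of genes that entered. The estrogen-related receptor motif TCAAGGTCA was in 2.67%, 0.423% and 0.279%, from 2 member windows. The antioxidant response motif TGACNNNGC was in 13.3%, 12.4% and 14.4%, and the AP-1 motif TGACTCA in 8%, 5.20% and 3.94%. The last 2 motifs can overlap, since both open with the same 4 letters. Matches are descriptions of letters, not of binding.

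Isoform shares in complex IV differed between libraries in a pair of families. Cox6a2 made 18.6% (15.7 to 21.7), 8.37% (6.30 to 10.9) and 12.5% (9.94 to 15.4) of the reads of Cox6a1 and Cox6a2 together. Cox6a1, the ubiquitous isoform, was level at 557, 558 and 526 reads. Cox7b2 made 40.4% (36.8 to 44.0), 30.2% (26.8 to 33.8) and 37.6% (34.0 to 41.2) of the reads of Cox7b and Cox7b2, where Cox7b had 440, 473 and 452. These shares are of reads, and Cox7b has 1001 exonic bases where Cox7b2 has 543. Per length, Cox7b2 made 55.5%, 44.4% and 52.6% of its pair, so it was the larger isoform in control and CDDO+TPA. Cox6a2 made 15.6%, 6.88% and 10.3% per length. In both families the tissue-restricted paralogue had its lowest share in the TPA library, by reads and per length. For Cox7b2 the control and CDDO+TPA intervals overlapped; for Cox6a2 the CDDO+TPA interval lay below that of control. Near-identical pseudogenes are annotated for Cox7b and none for Cox7b2.

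**Figure D3:**
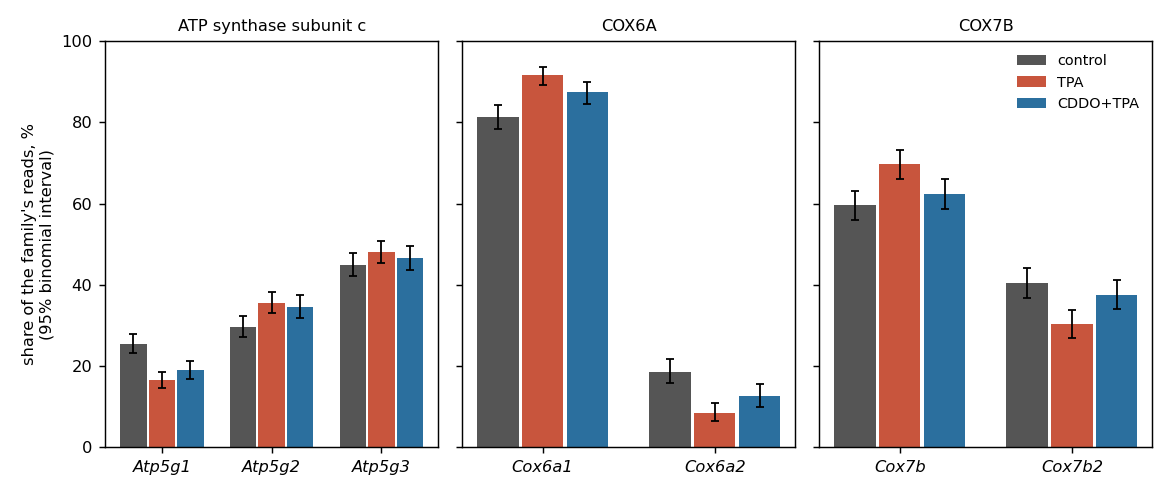
Share of a family's reads held by each isoform gene in the 3 libraries, in percent, with bars for the 95% binomial interval, for subunit c of ATP synthase, COX6A and COX7B. Atp5g1 has 25.4% in control against 16.5% and 18.9% in the treated libraries, and Cox6a2 and Cox7b2 have their lowest share in TPA. Shares are of reads and are not corrected for gene length.

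In 4 further families a single isoform held nearly all reads in each library. Cox4i1 held 99.6%, 99.4% and 100% of the reads of Cox4i1 and Cox4i2, and Cox6b1, Cox8a and Ndufa4 held at least 98.2% of theirs. In the Cox7a family, Cox7a2 had 415, 419 and 384 reads and Cox7a1 4, 7 and 2; Cox7a2l, the supercomplex factor, made 70.1%, 72.4% and 71.7% of the reads of the 3 genes. Ndufa4, which older naming puts in complex I and which is now placed in complex IV, had 438, 395 and 431 reads, with a ratio of 0.907 (0.790 to 1.04) for TPA against control.

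CDDO+TPA was compared with TPA for what differed when CDDO was given with the promoter. No member was past 1.5-fold in either direction, where 15.3% of all genes were higher and 12.8% lower, and none was past 2-fold, where 7.87% and 7.78% were. The median log2 fold change of the members was 0.01, as over all genes, and 41 of 77 were positive. The interval excluded 1 for 15 members that were higher and 11 that were lower, against 63% of all genes. The SD of the members' log2 fold changes was 0.20, against 0.61 over genes of at least 10 CPM. Several of these members had intervals on the other side of 1 in the first comparison; the TPA library stands in both, so this is no separate observation.

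Sdha was the largest contributor of complex II, at 1.32 (1.23 to 1.42) for CDDO+TPA against TPA, and the summed ratio of the complex was 1.17 (1.11 to 1.23). All 4 subunits had ratios above 1, but the intervals of Sdhb, Sdhc and Sdhd included 1. Among the highest ratios were Cox6a2 at 1.48 (1.03 to 2.16), Atp5s at 1.40 (1.07 to 1.82), Cox7b2 at 1.34 (1.11 to 1.61) and Ndufa9 at 1.31 (1.14 to 1.49). Long subunits of the catalytic parts were also higher in the CDDO+TPA library. Ndufs1, the largest iron-sulfur subunit of complex I, had 923, 861 and 1055 reads, with a ratio of 1.24 (1.13 to 1.35). Uqcrc1, a core protein of complex III, had 887, 829 and 1038 reads, with 1.26 (1.15 to 1.39). The exons of Ndufs1 overlap those of Ino80dos on the other strand over 248 bases, and Ino80dos had 24, 53 and 22 reads.

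Small subunits were among the lowest ratios for CDDO+TPA against TPA. Atp5k stood at 0.774 (0.600 to 0.997), Atp5e at 0.794 (0.658 to 0.956), Uqcr10 at 0.828 (0.715 to 0.957) and Uqcrh at 0.848 (0.746 to 0.965). Their CDDO+TPA read counts were near those of control. Atp5sl had 116, 133 and 104 reads and 0.789 (0.605 to 1.03), an interval that included 1. Ndufa11 had 352, 357 and 295 reads, a ratio of 0.834 (0.712 to 0.976), and was lowest in the CDDO+TPA library.

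Between CDDO+TPA and control the members were nearly even, with 37 of 77 log2 fold changes positive. A single member, Cox6a2, was lower by 1.5-fold at 0.600 (0.445 to 0.804), where 8.7% of all genes were lower; none was higher, where 13.4% were. None was past 2-fold, where 8.02% of all genes were higher and 3.37% lower. The interval excluded 1 for 6 members that were higher and 7 that were lower, against 55.8% of all genes, and the SD of the members' log2 fold changes was 0.17 against 0.56. Just under the rule lay Atp5g1 at 0.687 and Ndufb2 at 0.708 (0.578 to 0.865), low in both treated libraries. The highest were Ndufv2, an iron-sulfur subunit of the NADH module with 496, 551 and 607 reads, at 1.24 (1.10 to 1.40), and Uqcrc1, at 1.19 (1.09 to 1.30). Ndufv3, of the same module, had 458, 450 and 526 reads and a ratio of 1.17 (1.03 to 1.32).

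Duplicate removal bears on these genes, because a short abundant transcript has few start positions for distinct reads. The members had a median of 0.54, 0.53 and 0.52 reads per exonic base, against 0.20, 0.19 and 0.20 over genes of at least 10 CPM, and 45, 43 and 44 of the 77 members exceeded 0.5. Atp5b reached 1.37, 1.29 and 1.39 reads per base, and no gene of the table exceeded 2 in any library; the highest was Eef2 at 1.76, 1.83 and 1.73. Where counts were undone for a cap of 2 start positions per base, 5 members were lower by 1.5-fold in TPA against control, Atp5g1 and Cox7b2 being added at log2 fold changes of -0.62 and -0.60. The sources used here do not say how duplicates were defined, and the part of a cap in the evenness of the members was not tested.

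Length also moved weakly with the ratios over the transcriptome. Among the other genes of at most 500 exonic bases, the median log2 fold change was 0.22 for TPA against control and -0.28 for CDDO+TPA against TPA, and it passed through 0 to -0.05 and 0.05 beyond 2500 bases. The 13 members of at most 500 bases had medians of 0.04 and 0.005 in the 2 comparisons. The 27 members of 500 to 750 bases had medians of -0.03 and 0.01, where the other genes of that range had 0.15 and -0.17. Short members thus had medians nearer to 0 than other short genes in both comparisons. The other genes took in those that averaged under 10 CPM, while each member averaged at least 10 CPM, so the sets also differ in level. They also hold the ribosomal protein genes that follow. The cytosolic ribosomal protein genes, likewise short and abundant with a median of 710 bases, had medians of 0.17 and -0.20, and 75 of 79 were positive in the first and 3 of 79 in the second. Members over 1000 bases had a median of 0.08 for CDDO+TPA against TPA, with 18 of 27 positive. Across the 77 members the Spearman coefficient of log2 fold change with length was -0.10 and 0.21, a description over genes that share 3 libraries. Over the 9813 other genes that averaged at least 10 CPM it was -0.067 and 0.095, nearer to 0 than that of the members.

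**Figure D4:**
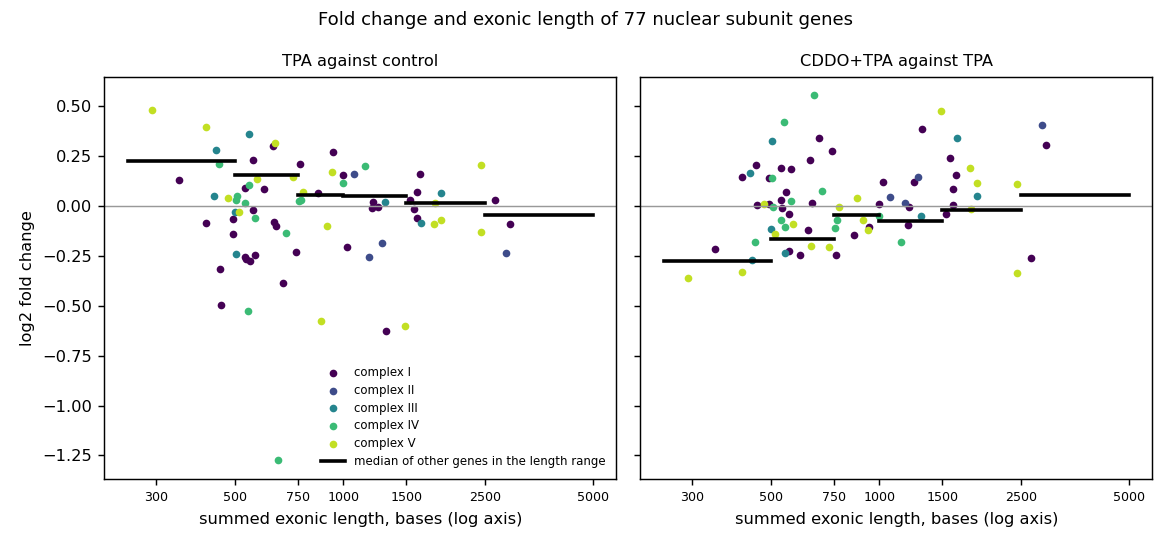
Log2 fold change of each of the 77 subunit genes against its summed exonic length in bases on a log axis, coloured by complex, for 2 comparisons; black bars give the median of the other genes in the same length range. The black bar for at most 500 bases lies at 0.22 and at -0.28, while the 13 members there have medians of 0.04 and 0.005.

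Of the proteins around the complexes, 6 further genes for subunits or associated proteins that the symbol rule leaves out (Ndufab1, Cyc1, Usmg5, 2010107E04Rik, Atpif1 and Minos1) were past 1.5-fold in no comparison. Assembly factors, which insert cofactors and join subunits, had a median log2 fold change of -0.07 for TPA against control and 0.01 for CDDO+TPA against TPA. Of the 42 that entered, 1 was higher and 3 lower by 1.5-fold in the TPA library, where 15.5% and 13.7% of all genes were. The higher gene was Ndufaf3, and the lower were Atpaf2, Nubpl and Taco1. In CDDO+TPA against TPA 2 were higher and none lower, where 15.3% and 12.8% of all genes were. These were Atpaf2 and Nubpl, while over the list 22 log2 fold changes were positive and 20 negative. Nubpl, which delivers iron-sulfur clusters to complex I, had 49, 25 and 88 reads, with ratios of 0.513 (0.304 to 0.847) and 3.55 (2.26 to 5.78). Atpaf2, a chaperone of the ATP synthase alpha subunit, had 309, 183 and 342 reads, with ratios of 0.596 (0.493 to 0.718) and 1.89 (1.57 to 2.27).

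Genes of coenzyme Q synthesis and cytochrome c, the mobile carriers between the complexes, had negative log2 fold changes in TPA against control for 11 of the 14 that entered. Of these 14, 5 were lower by 1.5-fold (Adck4, Coq2, Coq3, Coq9 and Coq10a) and none higher, where 13.7% and 15.5% of all genes were. In CDDO+TPA against TPA 4 were higher and 1 lower, where 15.3% and 12.8% of all genes were. Coq10a, a coenzyme Q binding protein, had 541, 225 and 369 reads, with ratios of 0.418 (0.357 to 0.490) and 1.66 (1.40 to 1.96). Their median log2 fold changes were -0.19 and 0.30, where those of the subunit genes were 0.01 and 0.01. The tricarboxylic acid cycle genes had medians of -0.20 and 0.30 over 17 genes. In the TPA library 1 was higher by 1.5-fold, Idh2, and 3 lower, Fh1, Pdha1 and Suclg2. Over all genes 15.5% were higher and 13.7% lower, so the lower count is near the general share. Fh1, fumarase, which follows complex II in the cycle, had 480, 277 and 427 reads, with ratios of 0.581 (0.499 to 0.674) and 1.56 (1.33 to 1.82).

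Regulators of mitochondrial gene expression were spread more widely. Of 21 that entered, 11 had positive and 10 negative log2 fold changes in TPA against control. By 1.5-fold, 6 were higher (Esrra, Esrrb, Mterf2, Polg2, Ppargc1a and Ppargc1b) and 2 lower (Mterf1a and Tfb1m). Over all genes the shares were 15.5% and 13.7%. In CDDO+TPA against TPA, 1 was higher, Tfb1m, and 5 lower (Gabpb1, Mterf2, Nrf1, Polg2 and Ppargc1a), where 15.3% and 12.8% of all genes were. Ppargc1a, a coactivator of respiratory genes, had 21, 296 and 165 reads, 14.2-fold (9.11 to 23.3) for TPA against control and 0.563 (0.462 to 0.683) for CDDO+TPA against TPA. Esrra, an estrogen-related receptor with which it acts, had 416, 694 and 525 reads, 1.68 (1.48 to 1.90). Nrf1 had 758, 985 and 553 reads, with ratios of 1.31 (1.19 to 1.44) and 0.567 (0.510 to 0.629). The mitochondrial ribosomal protein genes had median log2 fold changes of 0.02 and -0.10 over 77 genes, and those of protein import -0.03 and 0.01 over 23. The 10 proliferation markers summed to 880, 590 and 1714 CPM, lowest in the TPA library; their part in the values of the subunit genes was not tested.

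**Figure D5:**
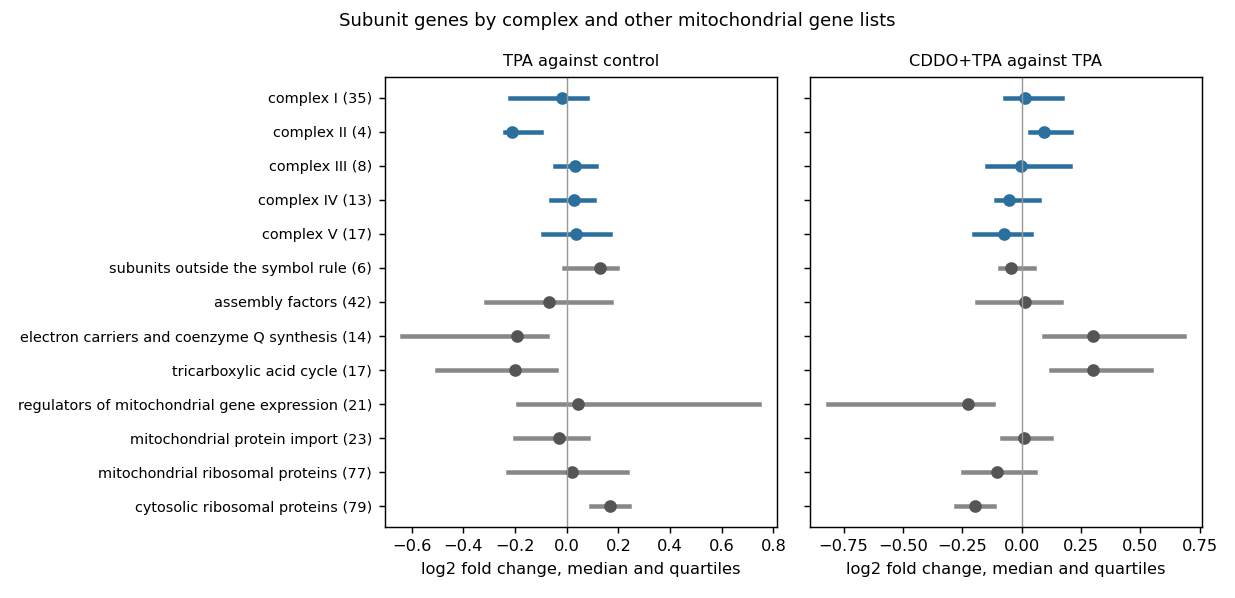
Median (point) and quartiles (bar) of the log2 fold change for subunit genes by complex, in blue, and for other lists, in grey, with the number of genes in brackets, in 2 comparisons. Complexes I, III, IV and V lie within 0.08 of 0 in both panels, complex II at -0.21 and 0.10, and coenzyme Q and tricarboxylic acid cycle genes near -0.20 and 0.30.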

How the data were processed

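RNA-seq counts of 3 libraries of JB6 P+ cells were used, 1 per group. The deposited table gives raw counts for each gene. Per the file headers, featureCounts 1.5.3 counted primary alignments against UCSC gene models of mm10, with no strand, pair or multi-mapping option. HISAT2, Picard and DESeq are named without version in the submitters' processing notes. The column names mark duplicate removal. The name of the CDDO column does not mention TPA; since a single sample has CDDO in its labels, the column was assigned to that sample, CDDO+TPA. Were it another treatment, each statement on CDDO+TPA would describe that.

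Library totals were scaled by TMM factors (0.978, 1.02 and 1.00) of edgeR 4.0.16 in R 4.3.3. Log2 fold changes use a prior count of 2; ratios use none, with exact conditional binomial intervals at 95%. A gene entered if any library held 1 CPM or more of it. Transcripts of members were compared with all others by blastn 2.17.0; at least 95% identity over at least 200 bases was called near-identical, for 26 members. Without a multi-mapping option, reads of near-identical copies cannot be told apart. Without a strand option, the same holds for reads over exons shared by overlapping genes, which by default are assigned to neither gene. Named members were the 5 highest and 5 lowest per comparison, those past 2-fold, the highest and lowest level per complex, complex II and isoform families; other genes were named after their values were seen. The members and lists were chosen with earlier results of these data known. The ratio and size rules were tested on simulated data. Reads are not independent molecules, so intervals and floors cover counting error only.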

Additional observations from a re-analysis of the deposited data

How the results depend on the processing

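No paired analysis was possible because each group had 1 library; for the same reason no library could be left out. Under 11 alternatives, no member was higher by 1.5-fold or by 2-fold in any comparison, and none was lower in CDDO+TPA against TPA. Members lower by 1.5-fold in TPA against control numbered 1 with library totals or with upper-quartile factors (Cox6a2) and 5 with counts undone for a cap on start positions. Leaving out the 31 members with overlaps or near-identical copies, chosen after seeing the data, removed Cox6a2, so that 0 were lower by 2-fold in TPA against control and 0 by 1.5-fold in CDDO+TPA against control. The members' median log2 fold change was 0.070 with totals and 0.073 with upper quartiles in TPA against control, and 0.034 and 0.041 in CDDO+TPA against control; with totals it was -0.018 in CDDO+TPA against TPA. The median of all genes moved with it, to 0.054 and 0.057 in TPA against control. Among the 26 members of at most 0.5 reads per base the medians were -0.023, 0.054 and -0.052. DESeq2 size factors, both prior counts, the 2 filters on low counts and leaving out members that are no subunit kept each count within 1.5 times and each median within its counting error. The filter at a mean of 10 CPM held the same 77 members, so it could change none of these values. Of 912 values of named members under the alternatives, 1 left its counting interval, Atp5b in CDDO+TPA against TPA, at a log2 fold change of 0.20 with the cap undone. The 912 include values under the filters on low counts, which do not enter a gene's fold change, so those could not move. With totals, the median of complex I turned from -0.02 to 0.04 in TPA against control and from 0.01 to -0.01 in CDDO+TPA against TPA. The shifts with totals or upper quartiles come with the library size, which enters every gene of a comparison alike. The cause of the other shifts was not tested.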
